A study of Mus musculus with 6 samples.

Results

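The pyruvate dehydrogenase complex is the mitochondrial enzyme that turns pyruvate, the end product of glycolysis, into acetyl-CoA for the citric acid cycle. Its E1 component is a heterotetramer of Pdha1 and Pdhb, its E2 core is Dlat, its E3-binding protein is Pdhx, and its E3 component is Dld, which it shares with related enzymes. Phosphorylation of E1 by the pyruvate dehydrogenase kinases (Pdk1 to Pdk4) switches the complex off. Dephosphorylation by the phosphatases, which have the catalytic subunits Pdp1 and Pdp2, switches it on. Pdp1 is the calcium-stimulated form, and Pdk4 is the kinase best known for induction by fasting, fatty acids and glucocorticoids.

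The set described here holds 10 genes out of 51802 gene symbols in the files: Pdha1, Pdhb, Dlat and Pdhx of the core, the kinases Pdk1, Pdk2, Pdk3 and Pdk4, and the phosphatases Pdp1 and Pdp2. Members were taken by gene symbol, and all 10 had counts in all 6 samples. The set was chosen with values of the same samples in view. A Pdp1 transcript that was present in one genotype and not in the other led to it. The values of Pdp1 and its transcripts are therefore given as a description, with no test. Of 40 listed transcripts of the 10 genes, 35 had a value above 0 in at least one sample.

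Bulk RNA-seq was made from cochleae of mice on the C57/BL6J background at 2 months of age, with 3 samples from wildtype mice (replicates 3, 4 and 5) and 3 from Pou4f3(Δ/+) mice (replicates 1, 2 and 3). The Pou4f3(Δ/+) mice are heterozygous for a knock-in allele with an 8-bp deletion and a C-T reversion that models the human deafness DFNA15. The allele was made in W4 embryonic stem cells with a vector that came from a 129/sv BAC clone and held a loxP-Neo-loxP cassette. Pou4f3 itself is a transcription factor of hair cells, which are a small share of the cells of a cochlea. Whether each sample was 1 animal or a pool was not given, and the p-values below measure the spread between these samples only. The samples had 14295069 to 17696784 summed expected counts each, where an expected count is an estimated number of fragments that need not be whole. Pou4f3 ranged from 68 to 88 counts in wildtype and from 52 to 97 in Pou4f3(Δ/+). The groups overlapped, and since the mutant allele is transcribed into the same gene count, this number does not check the genotype. The Pou4f3(Δ/+) replicates 1 and 2 stood apart from the rest: on the first principal component, which held 32.5% of the variance, they lay at 23.2 and 40.2, while Pou4f3(Δ/+) replicate 3 lay at -16.4 and the wildtype samples lay between -21.5 and -11.7. In the values by sample below, wildtype comes in the order of replicates 3, 4 and 5 and Pou4f3(Δ/+) in the order of 1, 2 and 3.

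Pdp1 (ENSMUSG00000049225) lies on the minus strand at chr4:11958184-11966452 in GENCODE M21 (build GRCm38). All 6 of its listed transcripts are annotated as protein coding. They share 1762 exonic bases, and their coding sequences differ at the start. ENSMUST00000108297 and ENSMUST00000056050 join an upstream exon to the large coding exon and have 538 codons, all within that exon. The others start their coding sequence earlier and in the same frame: ENSMUST00000108301 has 59 additional codons, ENSMUST00000108302 has 40, and ENSMUST00000095144 and ENSMUST00000108299 have 25. The coding bases before the large exon are what distinguishes the proteins, so those of 3 transcripts are shown here from the GENCODE M21 transcript sequences, 5′ to 3′, with the start codon in capitals. For ENSMUST00000108302 these are 76 bases at chr4:11965884-11965959, and for ENSMUST00000095144 and ENSMUST00000108299 they are the same 31 bases at chr4:11965614-11965644.
ENSMUST00000108302: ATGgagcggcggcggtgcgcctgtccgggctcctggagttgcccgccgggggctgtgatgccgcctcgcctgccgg
ENSMUST00000095144: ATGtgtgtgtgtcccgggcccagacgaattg

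Each Pdp1 transcript enters the large exon through a splice junction. The 15 bases before each junction are in capitals and the 15 bases after it, which are the same in all, are in lower case. The first junction belongs to ENSMUST00000108297 and ENSMUST00000056050, whose coding sequence starts only within the large exon, so it is untranslated there. The second belongs to ENSMUST00000108302 alone, and the third to ENSMUST00000108301, ENSMUST00000095144 and ENSMUST00000108299 together.
Pdp1 upstream exon: GCTCGACTGTGCCCGgaatcccagtcagaa
Pdp1 exon of ENSMUST00000108302: CGCCTCGCCTGCCGGgaatcccagtcagaa
Pdp1 exon of ENSMUST00000108301: GGCCCAGACGAATTGgaatcccagtcagaa

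ENSMUST00000108302 had 54 bases and 1 junction that no other Pdp1 transcript has. ENSMUST00000095144, ENSMUST00000108299 and ENSMUST00000056050 had no base of their own and differ from the others by 1 junction each. ENSMUST00000108297 had 1648 bases of its own, 1623 of them in a longer 3′ end, and ENSMUST00000108301 had 173.

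**Figure D1:**
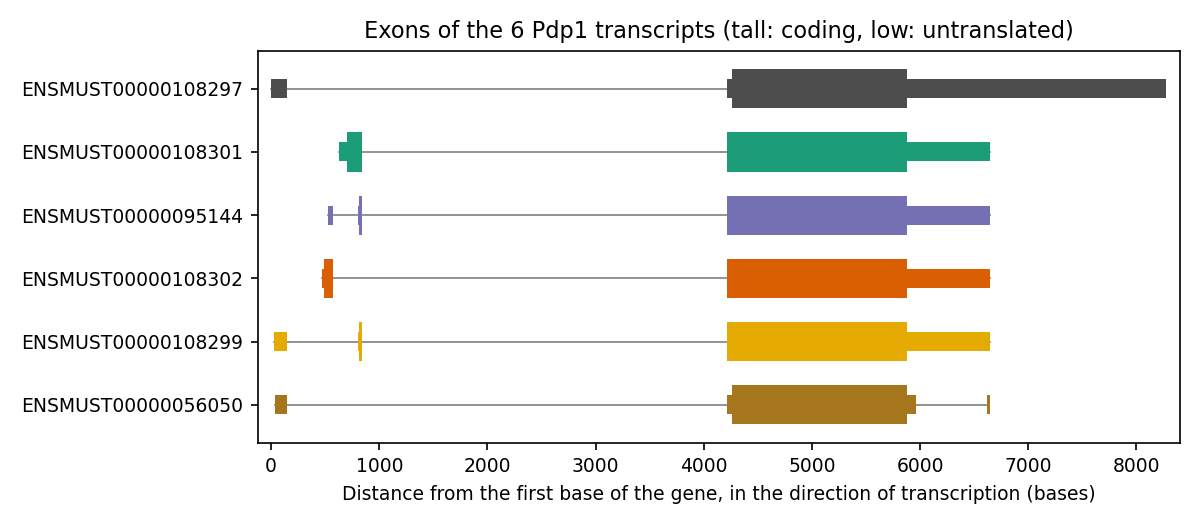
Exons of the 6 Pdp1 transcripts in GENCODE M21, plotted by distance in bases from the first base of the gene in the direction of transcription, with coding parts tall and untranslated parts low. All 6 share the large coding exon and differ in their first exons, and ENSMUST00000108297 alone extends at the 3′ end.

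The abundance of the complex ran from subunits at about 70 FPKM (fragments scaled to transcript length and library size) to the phosphatase Pdp2 at about 3 FPKM. Of the 9 members tested, which leave out Pdp1, none passed the test between genotypes. Pdha1 (71.3 ± 1.30 FPKM in wildtype, SD, n = 3) and Pdhb (68.5 ± 2.86) were the highest, and their ranges over the wildtype samples overlapped. Dld followed at 57.4 ± 2.13 FPKM and Dlat at 21.9 ± 0.817. The kinases Pdk3 (20.5 ± 0.781), Pdk2 (20.1 ± 1.12) and Pdk1 (18.8 ± 1.03) lay next to Dlat, each overlapping its neighbour in this order. Pdhx (13.3 ± 0.400) and Pdp1 (12.8 ± 0.820) overlapped each other and were lower than the 3 kinases. Pdk4 (6.91 ± 1.11) and Pdp2 (3.13 ± 0.185) were each separate from their neighbours. In Pou4f3(Δ/+) the order was the same except for neighbours that overlapped: Pdhb (70.0 ± 2.83 FPKM) came before Pdha1 (69.3 ± 4.24) and Pdk2 (19.0 ± 1.27) before Pdk3 (19.0 ± 0.896). There, each gene from Pdk2 down to Pdp1 overlapped the next, and Pdk4 was separate from Pdp2.

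**Figure D2:**
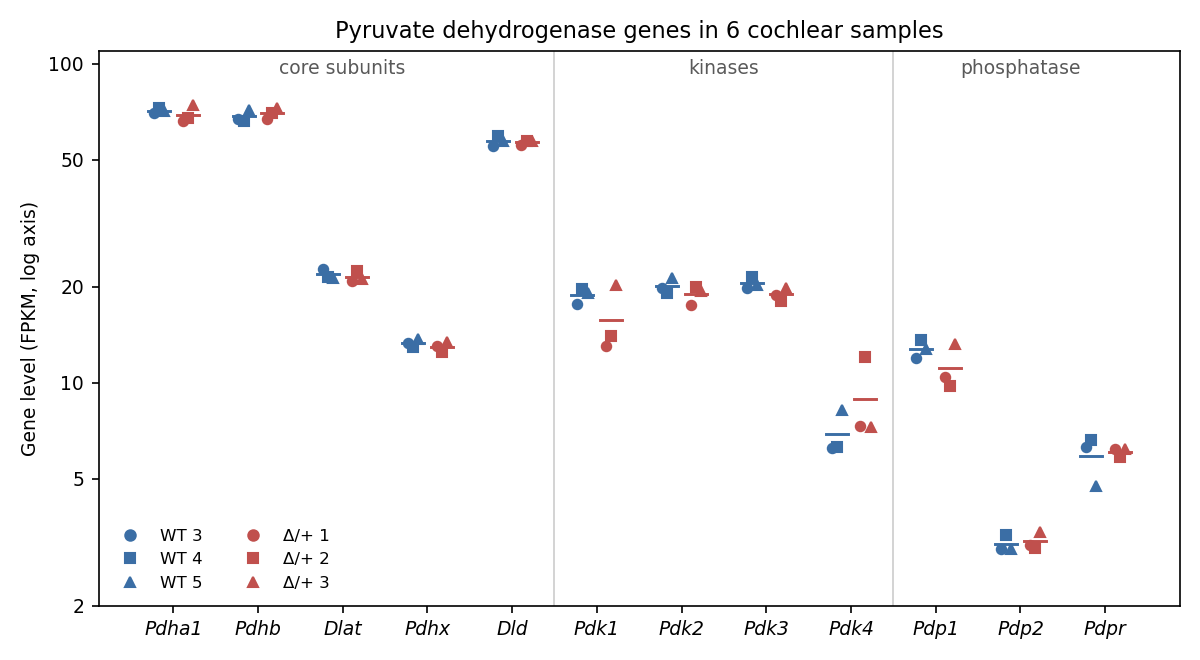
Gene level in FPKM on a log axis for the 10 members and their partners Dld and Pdpr, with a point per sample and a line at the group mean. The groups overlap in every gene plotted, with the widest spread in Pdk1, Pdk4 and Pdp1 among the Pou4f3(Δ/+) samples.

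Between genotypes, edgeR's quasi-likelihood test with Benjamini-Hochberg adjustment called 0 of 17136 genes at an adjusted p under 0.05, a background of 0%, with 1309 genes at an unadjusted p under 0.05 and 64 genes called by DESeq2. Of the 9 members other than Pdp1, 0 were called by either tool, and 0 had an unadjusted p under 0.05, a cut that 4.14% of all genes passed with lower and 3.5% with higher values in Pou4f3(Δ/+). On the FPKM scale the groups overlapped in all 10 members, while over all genes tested 6.03% had groups apart with lower and 6.02% with higher values in Pou4f3(Δ/+).

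The core subunits gave small differences. Pdha1, the catalytic E1 alpha subunit that carries the phosphorylation sites (X chromosome, minus strand, chrX:160122209-160138413), had 70.1, 72.7 and 71.2 FPKM in wildtype and 66.2, 67.5 and 74.1 in Pou4f3(Δ/+). Pou4f3(Δ/+) replicates 1 and 2 were the lowest and Pou4f3(Δ/+) replicate 3 was the highest of the 6. The log2 fold change was -0.04 (95% interval -0.18 to 0.10, edgeR adjusted p = 0.894). Pdha1 shares 603 exonic bases with Map3k15 on the opposite strand, and whether counting used the strand was not given; Map3k15 averaged 175 counts, against 2922 to 3462 counts of Pdha1.

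Pdhb, the E1 beta subunit (chr14:8165996-8173025, minus strand), had 67.4, 66.4 and 71.8 FPKM in wildtype and 67.1, 70.2 and 72.8 in Pou4f3(Δ/+). The samples of the genotypes were interleaved, with a log2 fold change of 0.03 (95% interval -0.11 to 0.17, edgeR adjusted p = 0.930). The ratio of Pdha1 to Pdhb on the FPKM scale was 1.04 ± 0.0515 in wildtype and 0.989 ± 0.0283 in Pou4f3(Δ/+), so the transcripts of the paired E1 subunits stood near equality in both.

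Dlat, the dihydrolipoamide acetyltransferase of the E2 core (chr9:50634633-50659780, minus strand), had 22.8, 21.5 and 21.3 FPKM in wildtype and 20.9, 22.4 and 21.2 in Pou4f3(Δ/+). Its log2 fold change was -0.01 (95% interval -0.15 to 0.13, edgeR adjusted p = 0.981). For Pdha1, Pdhb and Dlat the intervals lay within 0.2 of 0 on the log2 scale. Dld, the E3 subunit, was as even, with 55.2, 59.5 and 57.5 FPKM in wildtype and 55.8, 57.2 and 57.2 in Pou4f3(Δ/+) and a log2 fold change of -0.03 (edgeR adjusted p = 0.921).

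Pdhx, which tethers E3 to the core (chr2:103021075-103073513, minus strand), read differently in FPKM and in counts. In FPKM it had 13.4, 12.9 and 13.7 in wildtype and 13.1, 12.5 and 13.4 in Pou4f3(Δ/+), and the groups overlapped. In CPM, counts scaled to the sample total, it had 27.8, 27.0 and 27.3 in wildtype and 29.0, 29.3 and 30.2 in Pou4f3(Δ/+), and the groups did not overlap. Such a separation with higher values in Pou4f3(Δ/+) was found in 6.07% of all genes on the log2 CPM scale, which is also TMM normalized. The log2 fold change from counts was 0.11 (95% interval -0.06 to 0.27, edgeR adjusted p = 0.758), and limma on log2(FPKM + 0.5) gave -0.036.

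FPKM divides each transcript by its own length, and the long and short transcripts of Pdhx differed in opposite directions. The full-length coding transcript ENSMUST00000011058 (2506 bases, 501 codons) had 10.2, 9.58 and 9.75 FPKM in wildtype and 10.9, 11.1 and 11.2 in Pou4f3(Δ/+). All Pou4f3(Δ/+) samples were above all wildtype samples. The short ENSMUST00000132449 (655 bases), which the annotation marks as incomplete at both ends, had 3.02, 2.77 and 3.82 FPKM in wildtype and 2.02, 0.99 and 1.69 in Pou4f3(Δ/+), or 34.2, 26.0 and 43.0 counts against 23.4, 10.03 and 16.2. All Pou4f3(Δ/+) samples were below all wildtype samples. Over all transcripts tested, 5.15% had groups apart with lower and 5.39% with higher FPKM in Pou4f3(Δ/+), and among the members it was these transcripts and a Pdp1 transcript described below.

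ENSMUST00000132449 leaves out exon 2 of the full-length transcript, and its junction from exon 1 to exon 3 is in no other Pdhx transcript. It has 0 bases of its own. Exon 2 lies at chr2:103058497-103058577 and holds 81 coding bases, or 27 codons, so leaving it out keeps the reading frame. It is shown with the junctions around it, in which the 15 bases before the junction are in capitals.
Pdhx exon 2: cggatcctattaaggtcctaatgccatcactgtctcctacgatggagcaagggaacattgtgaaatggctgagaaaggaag
Pdhx exon 1 to exon 2: CTCAGCTGCTGCAGGcggatcctattaagg
Pdhx exon 2 to exon 3: GGCTGAGAAAGGAAGgtgaagctgtgagtg
Pdhx exon 1 to exon 3: CTCAGCTGCTGCAGGgtgaagctgtgagtg

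The transcript test gave ENSMUST00000132449 a log2 fold change of -1.06, a standard error of 0.397 and an unadjusted p of 0.0353. Its adjusted p was 0.999, so it was not called. It was the 1 member transcript of the 15 tested outside Pdp1 with an unadjusted p under 0.05, a cut that 2.19% of the 38347 transcripts passed with lower values. Its log2 fold change ran from -1.27 to -0.83 over 10 alternatives, and the unadjusted p stayed under 0.05 in 4 of these. For the full-length ENSMUST00000011058 the log2 fold change was 0.17, with a standard error of 0.0935 and an edgeR adjusted p of 0.999. The share of ENSMUST00000132449 in the summed FPKM of Pdhx was 22.6, 21.4 and 27.8% in wildtype and 15.4, 7.93 and 12.6% in Pou4f3(Δ/+). By expected counts its mean share was lower, at 7.68% in wildtype and 3.48% in Pou4f3(Δ/+). The test of transcript usage, which asks whether the shares of the transcripts of a gene differ, gave Pdhx an unadjusted p of 0.0891 and an adjusted p of 1.00. It called 50 of 8998 genes, a background of 0.556%, and 0 of the 3 members that it could test outside Pdp1, which were Dlat, Pdhx and Pdk1. Over all transcripts, edgeR called 0, a background of 0%, with 1586 at an unadjusted p under 0.05 and 130 called by DESeq2.

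Among the kinases, Pdk1 and Pdk4 differed most between samples. Pdk1 (chr2:71873224-71903858, plus strand), a kinase that hypoxia is known to induce, had 17.6, 19.6 and 19.1 FPKM in wildtype and 13.1, 13.98 and 20.2 in Pou4f3(Δ/+). The Pou4f3(Δ/+) replicates 1 and 2 were the lowest of the 6 samples, and Pou4f3(Δ/+) replicate 3 was the highest. The log2 fold change over all samples was -0.21 (95% interval -0.49 to 0.07, edgeR adjusted p = 0.713). Without Pou4f3(Δ/+) replicate 3 it was -0.41 with an edgeR adjusted p of 0.0648, and with that replicate alone against wildtype it was 0.125. Leaving out replicate 3 moved many genes: 193 of 17513 were then called, Pdk1 not among them, and 3041 had an unadjusted p under 0.05. Leaving out any 1 of the 6 samples gave log2 fold changes from -0.41 to -0.109, all negative.

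Pdk4 (chr6:5483351-5496309, minus strand) had 6.24, 6.31 and 8.19 FPKM in wildtype and 7.33, 12.1 and 7.25 in Pou4f3(Δ/+). One sample, Pou4f3(Δ/+) replicate 2, was above all the others, and the remaining Pou4f3(Δ/+) samples lay below wildtype replicate 5. The log2 fold change was 0.36 (95% interval -0.06 to 0.79, edgeR adjusted p = 0.682), and it was 0.064 with Pou4f3(Δ/+) replicate 2 left out and 0.047 for Pou4f3(Δ/+) replicate 3 alone. Pdk4 made up 9.81, 9.50 and 11.9% of the summed kinase FPKM in wildtype and 12.9, 18.8 and 10.9% in Pou4f3(Δ/+).

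Pdk2, the kinase with the widest tissue distribution (chr11:95026258-95041354, minus strand), had 19.9, 19.1 and 21.3 FPKM in wildtype and 17.6, 20.01 and 19.4 in Pou4f3(Δ/+), with a log2 fold change of -0.06 (95% interval -0.26 to 0.14, edgeR adjusted p = 0.894). Pdk3, a kinase of high activity (chrX:93764607-93832201, minus strand), had 19.9, 21.4 and 20.3 FPKM in wildtype and 18.9, 18.1 and 19.9 in Pou4f3(Δ/+). Replicate 3 of Pou4f3(Δ/+) matched the lowest wildtype sample. In CPM of the total the groups overlapped (41.4 to 45.3 and 38.3 to 41.9), and in TMM normalized log2 CPM they were just apart, at -0.05 and -0.06 from the wildtype mean where they were nearest. On that scale 6.59% of all genes had groups apart with lower values in Pou4f3(Δ/+). Its log2 fold change was -0.12 (95% interval -0.28 to 0.04, edgeR adjusted p = 0.711), with a range of -0.146 to -0.062 over 12 alternatives.

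**Figure D3:**
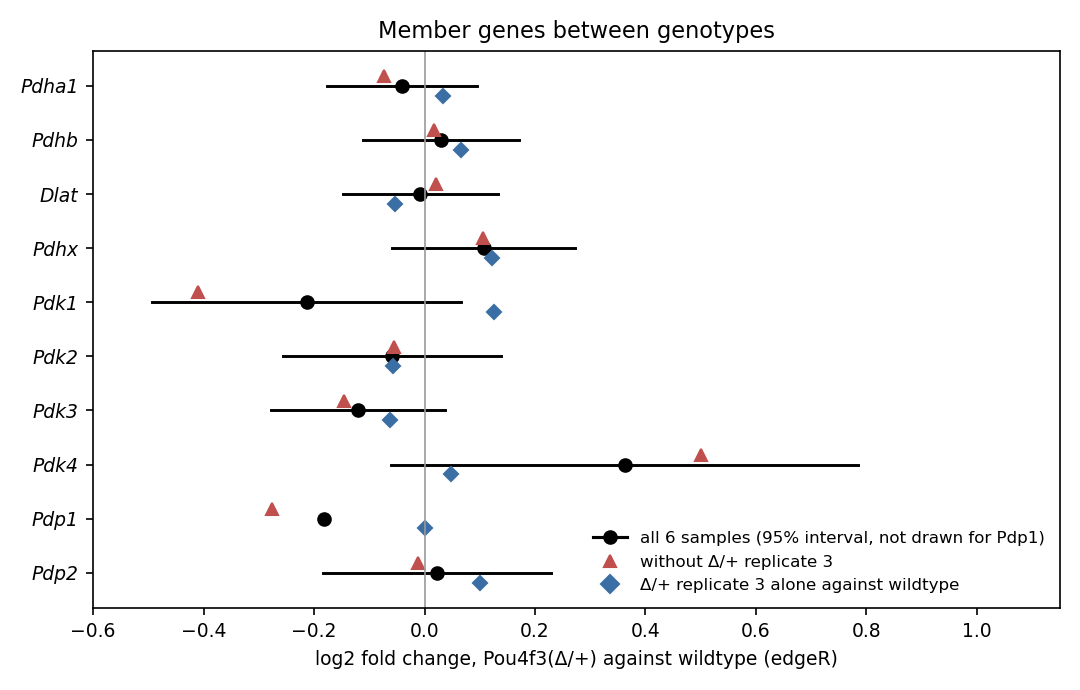
log2 fold change of each member, Pou4f3(Δ/+) against wildtype, from edgeR with all 6 samples (black, with the approximate 95% interval except for Pdp1), without Pou4f3(Δ/+) replicate 3 (triangles) and for that replicate alone against wildtype (diamonds). Every interval drawn includes 0, and Pdk1 is at -0.41 without replicate 3 and at 0.125 with replicate 3 alone.

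The transcripts of the kinases were led by 1 coding transcript each. It held 98.5 to 99.9% of the FPKM of Pdk3 and Pdk4 on average in either genotype and 94.2 to 96.8% for Pdk2. Pdk1 was more divided: its coding transcript ENSMUST00000006669 held 72.1 ± 3.27% in wildtype and 74.8 ± 4.61% in Pou4f3(Δ/+), and the noncoding ENSMUST00000134362 held 14.7 ± 2.60% and 12.2 ± 8.39%. By expected counts the coding transcript held 88.5% in wildtype and 88.7% in Pou4f3(Δ/+), and ENSMUST00000134362 held 3.7% and 3.07%. ENSMUST00000134362 had 56.1, 43.6 and 42.3 counts in wildtype and 7.76, 45.2 and 43.7 in Pou4f3(Δ/+), so that Pou4f3(Δ/+) replicate 1 alone was low. The noncoding ENSMUST00000156036 held 9.27 ± 4.19% and 9.90 ± 4.25%. The coding transcript of Pdk1 had 13.3, 13.5 and 13.9 FPKM in wildtype and 10.4, 9.84 and 15.03 in Pou4f3(Δ/+). As for the gene, Pou4f3(Δ/+) replicates 1 and 2 were the lowest and replicate 3 the highest.

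In the core, Pdhb was listed with 1 transcript, and the coding transcript of Pdha1 held 99.2 ± 0.71% in wildtype. Dlat had a coding transcript, ENSMUST00000034567, with 77.2 ± 6.51% in wildtype and 78.7 ± 3.08% in Pou4f3(Δ/+), and a short noncoding one, ENSMUST00000125919, with 20.1 ± 6.32% and 18.3 ± 3.71%. The share of ENSMUST00000125919 falls to 4.79% in wildtype and 4.25% in Pou4f3(Δ/+) when expected counts replace FPKM. It is 770 bases long against 4035.

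Of the phosphatases, Pdp2 was the least abundant member and Pdp1 lay between Pdhx and Pdk4. Pdp2, the phosphatase that calcium does not stimulate (chr8:104591451-104599026, plus strand), listed with 1 transcript, had 3.02, 3.34 and 3.02 FPKM in wildtype and 3.11, 3.03 and 3.40 in Pou4f3(Δ/+), with a log2 fold change of 0.02 (95% interval -0.18 to 0.23, edgeR adjusted p = 0.966). Pdp1 had 11.96, 13.6 and 12.8 FPKM in wildtype and 10.4, 9.76 and 13.2 in Pou4f3(Δ/+), or 672, 625 and 693 counts against 605, 508 and 610. The Pou4f3(Δ/+) replicates 1 and 2 were below all wildtype samples on the FPKM scale, as for Pdk1, and Pou4f3(Δ/+) replicate 3 was within the wildtype range. The log2 fold change of Pdp1 was -0.18 over all samples, -0.28 without Pou4f3(Δ/+) replicate 3 and 0.001 for that replicate alone. The ratio of Pdp1 to Pdp2 on the FPKM scale was 3.96, 4.07 and 4.24 in wildtype and 3.34, 3.22 and 3.89 in Pou4f3(Δ/+).

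The Pdp1 transcripts varied to very different degrees. Across the 6 samples the coefficient of variation of their expected counts, not scaled to depth, ran from 7.60% for ENSMUST00000108297 to 243% for ENSMUST00000056050. ENSMUST00000108297, the main transcript with the long 3′ end, had 370, 319 and 345 expected counts in wildtype and 328, 305 and 307 in Pou4f3(Δ/+). It was the steadiest of the 6 and made up 39.7 ± 2.69% of Pdp1 FPKM in wildtype cochleae and 42.7 ± 5.16% in Pou4f3(Δ/+).

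ENSMUST00000108302, the transcript that led to this set, had 46.9, 36.8 and 46.1 expected counts in wildtype and 0, 0 and 0.06 in Pou4f3(Δ/+). Its level was 1.08, 1.02 and 1.06 FPKM in wildtype and 0 in each Pou4f3(Δ/+) sample, where the limit that a count of 0 allows, 3 counts, is worth 0.0671 to 0.0810 FPKM, for counting error only. It held 9.03, 7.50 and 8.29% of the FPKM of Pdp1 in wildtype. The contrast was complete in all 6 samples, including Pou4f3(Δ/+) replicate 3, which lay with wildtype for the gene as a whole. As it was chosen for this contrast, the values stand without a test. Of 38407 transcripts with at least 20 counts in a sample, 20 (0.0521%) had at least 20 counts in all wildtype samples and under 1 in all Pou4f3(Δ/+) samples, and 15 showed the reverse.

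Another 2 Pdp1 transcripts came and went within a genotype. ENSMUST00000108299 had 0, 28.5 and 56.1 expected counts in wildtype and 82.3, 0 and 0 in Pou4f3(Δ/+). ENSMUST00000056050 had under 0.1 in 5 samples and 23.0 in Pou4f3(Δ/+) replicate 3. These transcripts thus went from 0 or nearly 0 to over 20 counts between samples of one genotype, as 5228 of the 38407 transcripts did (13.6%).

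ENSMUST00000108301, with the longest coding sequence, had 98.8, 166 and 18.2 expected counts in wildtype and 179, 128 and 146 in Pou4f3(Δ/+). ENSMUST00000095144 had 156, 75.4 and 228 in wildtype and 15.2, 75.2 and 134 in Pou4f3(Δ/+). Wildtype replicate 5 was lowest in the first and highest in the second, and Pou4f3(Δ/+) replicate 1 was highest in the first and lowest in the second. Their sum varied less within wildtype than either did alone, with 255, 241 and 246 counts, against 195, 203 and 280 in Pou4f3(Δ/+). These counts are not scaled to depth, which was lowest in wildtype replicate 4, so the wildtype sums are less even relative to depth. These transcripts share the third junction shown above, and they differ before it. As a share of Pdp1 FPKM, ENSMUST00000108301 held 18.1, 32.4 and 3.13% in wildtype and 37.0, 32.2 and 28.6% in Pou4f3(Δ/+), and ENSMUST00000095144 held 30.2, 15.4 and 41.4% and 3.27, 19.9 and 27.4%.

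**Figure D4:**
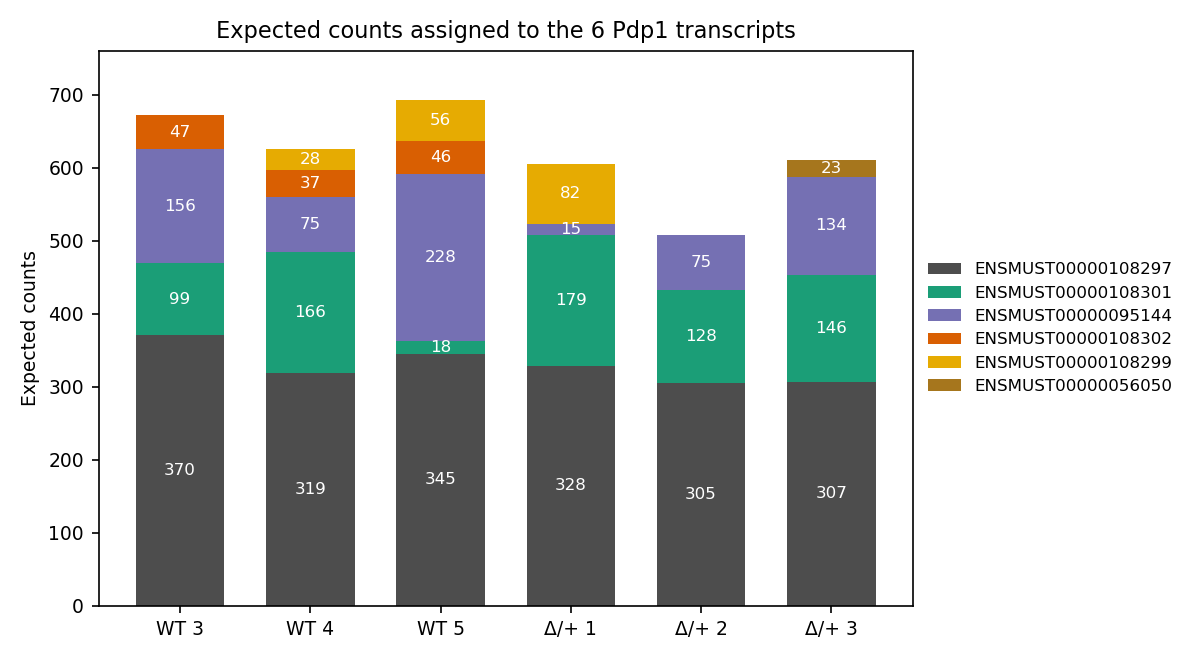
Expected counts, not scaled to depth, of the 6 Pdp1 transcripts stacked per sample, with transcripts of 12 or more counts labelled. ENSMUST00000108302 appears in each wildtype sample and in no Pou4f3(Δ/+) sample, while ENSMUST00000108299, ENSMUST00000095144 and ENSMUST00000108301 also change within a genotype and the gene sums stay between 508 and 693.

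Grouped by first exon, the upstream group (ENSMUST00000108297, ENSMUST00000108299 and ENSMUST00000056050) had 370, 347 and 401 expected counts in wildtype and 410, 305 and 330 in Pou4f3(Δ/+). The middle group (ENSMUST00000095144 and ENSMUST00000108302) had 203, 112 and 274 in wildtype and 15.2, 75.2 and 134 in Pou4f3(Δ/+), and its ranges overlapped between genotypes. Counts of Pdp1 transcripts were estimates that divide reads of shared sequence: over the members, 54 of 60 gene sums above 0 were whole numbers within 0.01, but only 27 of 163 transcript values (16.6%). The deposited values do not say how many reads crossed a junction.

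Set against each other, the kinases exceeded the phosphatases in every sample. The summed FPKM of Pdk1 to Pdk4 was 63.6, 66.4 and 68.9 in wildtype and 56.9, 64.1 and 66.7 in Pou4f3(Δ/+), and that of Pdp1 and Pdp2 was 14.98, 16.9 and 15.8 and 13.5, 12.8 and 16.6. The ratio was 4.25, 3.92 and 4.36 in wildtype and 4.21, 5.01 and 4.01 in Pou4f3(Δ/+), with Pou4f3(Δ/+) replicate 2 the highest and the groups overlapping. That sample had the highest Pdk4 and the lowest Pdp1 of the 6.

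None of the partners of the complex passed the test between genotypes. Of 12 genes for the E3 subunit, the regulatory subunit Pdpr, the mitochondrial pyruvate carrier, lipoate synthesis and thiamine supply, 0 had an unadjusted p under 0.05, and their median log2 fold change was -0.06, beside -0.0027 for all genes tested. Pdpr, which restrains Pdp1, had 6.28, 6.61 and 4.74 FPKM in wildtype and 6.18, 5.85 and 6.22 in Pou4f3(Δ/+) (log2 fold change -0.02, edgeR adjusted p = 0.970). Of 16 citric acid cycle genes, 0 had an unadjusted p under 0.05 (median log2 fold change -0.05). Of 9 genes of the related 2-oxoacid dehydrogenases, 1 did: Bckdk, the kinase of the branched-chain complex, with 32.6, 32.6 and 31.6 FPKM in wildtype and 25.4, 27.9 and 25.2 in Pou4f3(Δ/+), all lower than wildtype (log2 fold change -0.20, edgeR adjusted p = 0.643). Over all genes, 4.14% had such a p with lower values, and 6.03% had groups apart in FPKM with lower values.

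Upstream of the complex, the 19 genes of glycolysis and lactate handling had 6 with an unadjusted p under 0.05, all lower in Pou4f3(Δ/+), beside 4.14% of all genes, and a median log2 fold change of -0.16. None passed the adjusted test. The mean log2 CPM of the list was lowest in Pou4f3(Δ/+) replicates 1 and 2, at -0.28 and -0.14 from the wildtype mean. Pou4f3(Δ/+) replicate 3 and wildtype replicate 4 were both at -0.09. Tpi1, the triose phosphate isomerase, had 158, 142 and 151 FPKM in wildtype and 125, 119 and 141 in Pou4f3(Δ/+) (log2 fold change -0.24, edgeR adjusted p = 0.643). Pgam1, the phosphoglycerate mutase, had 99.6, 90.1 and 99.0 against 74.1, 80.6 and 88.8 (log2 fold change -0.25). Ldhb, the lactate dehydrogenase subunit that favours pyruvate formation, had 316, 307 and 319 against 251, 239 and 303 (log2 fold change -0.26). Pfkp, a phosphofructokinase, had a log2 fold change of -0.16 and Slc16a3, a lactate exporter, one of -0.28. In the other direction, Slc16a1, a lactate and pyruvate transporter chosen here after its values were seen, had 28.1, 28.9 and 23.0 FPKM in wildtype and 32.0, 30.4 and 29.95 in Pou4f3(Δ/+) (log2 fold change 0.21). Gapdh had 92.2, 46.1 and 85.1 against 11.1, 47.5 and 42.0 FPKM, and as it has many near-identical pseudogenes its counts are uncertain.

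The mean levels of some cell type marker lists were furthest from wildtype in Pou4f3(Δ/+) replicates 1 and 2, where Pdk1 and Pdp1 were low. In bulk samples fewer cells of a type and less RNA per cell cannot be told apart. The 6 markers of the stria vascularis and fibrocytes had a mean log2 CPM of 8.12 to 8.21 in wildtype and of 7.72, 7.59 and 8.06 in Pou4f3(Δ/+). Kcne1, a potassium channel subunit of the stria, had 47.1, 47.7 and 49.3 FPKM in wildtype and 28.4, 16.0 and 34.7 in Pou4f3(Δ/+) (log2 fold change -0.84, edgeR adjusted p = 0.643). Kcne1, Kcnq1 and Atp1b2 had an unadjusted p under 0.05, as 4.14% of all genes did with lower values. The log2 fold changes of Kcnq1 and Atp1b2 were -0.45 and -0.49. In FPKM these 3 genes were below wildtype in every Pou4f3(Δ/+) sample, replicate 3 included, as 6.03% of all genes were. The fibrocyte genes of the list did not follow: Otos had 395, 377 and 353 FPKM in wildtype and 345, 360 and 478 in Pou4f3(Δ/+), and Coch had 2084, 2135 and 2828 against 2030, 2147 and 2095. The 7 neuronal markers of the spiral ganglion had a mean of 6.63 to 6.75 in wildtype and of 6.42, 6.31 and 6.83 in Pou4f3(Δ/+). As for Pdk1, replicates 1 and 2 were the lowest and replicate 3 the highest of the 6. Tubb3 of this list did not follow, with 31.9, 32.2 and 25.5 FPKM in wildtype and 31.7, 29.1 and 48.6 in Pou4f3(Δ/+), and Prph rested on 8 to 29 counts. The 8 B cell markers, all of which had an unadjusted p under 0.05, had a mean of 4.14 to 4.52 in wildtype and of 5.41, 5.54 and 4.64 in Pou4f3(Δ/+) (median log2 fold change 0.86). Among these, Cd79a, a subunit of the B cell receptor, had 44.6, 46.0 and 37.1 FPKM in wildtype and 88.0, 109 and 42.9 in Pou4f3(Δ/+). Of the B cell markers, 3 were above wildtype in every Pou4f3(Δ/+) sample in FPKM, replicate 3 included. Over all genes, 6.02% had groups apart in this direction, and 3.5% had an unadjusted p under 0.05 with higher values. The 9 hair cell markers had 0 with an unadjusted p under 0.05 and a mean of 3.65 to 3.81 in wildtype and 3.74 to 3.94 in Pou4f3(Δ/+). The part of cell makeup in the values of Pdk1 and Pdp1 was not tested.

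Lists for the known inducers of Pdk4 were read beside it. The 8 glucocorticoid response genes had a mean log2 CPM of 6.07 to 6.10 in wildtype and of 6.33, 6.71 and 5.81 in Pou4f3(Δ/+), highest in the sample with the highest Pdk4. Fkbp5, a glucocorticoid-induced chaperone, had 16.0, 14.2 and 13.8 FPKM in wildtype and 22.4, 42.5 and 13.7 in Pou4f3(Δ/+). It was the 1 gene of the list with an unadjusted p under 0.05 (log2 fold change 0.81, edgeR adjusted p = 0.643), beside 3.5% of all genes with higher values. The 12 genes of the PPAR and fasting response, of which 11 passed the filter, had 0, with a mean of 4.67, 4.70 and 5.13 in wildtype and of 4.87, 4.9996 and 4.74 in Pou4f3(Δ/+). The order of the samples was that of Pdk4 except that wildtype replicate 5 came before Pou4f3(Δ/+) replicate 2. Angptl4, a PPAR target that inhibits lipoprotein lipase, had 3.88, 5.59 and 14.6 FPKM in wildtype and 15.5, 18.4 and 3.63 in Pou4f3(Δ/+), also highest in Pou4f3(Δ/+) replicate 2; it was named after its values were seen. Pdk4 is also abundant in muscle and fat. The skeletal muscle markers summed to 2.99 to 5.74 FPKM in wildtype and 3.04 to 12.6 in Pou4f3(Δ/+), with 2 of 9 past the filter and Myh1, Myh2 and Myh4 at 0.09 or below in all samples. The highest sum was that of Pou4f3(Δ/+) replicate 3, where Mb was at 6.61 and Ckm at 2.36 FPKM, against at most 0.79 and 0.68 in the other samples, and where Pdk4 was not high. The 6 adipocyte markers summed to 45.3 to 58.8 FPKM in wildtype and to 52.9, 83.2 and 47.5 in Pou4f3(Δ/+), highest in Pou4f3(Δ/+) replicate 2, of which Fabp4 made up 67.5, while Lep and Retn were at 0.25 or below. Adipoq, the other adipocyte marker past the filter, was not high in that sample, at 14.2 FPKM against 15.9 and 17.6 in the other Pou4f3(Δ/+) samples and 12.6 to 16.3 in wildtype. Cidec, below the filter, was highest there, with 21 counts against at most 8 in the other samples. Their part in the Pdk4 value was not tested.

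**Figure D5:**
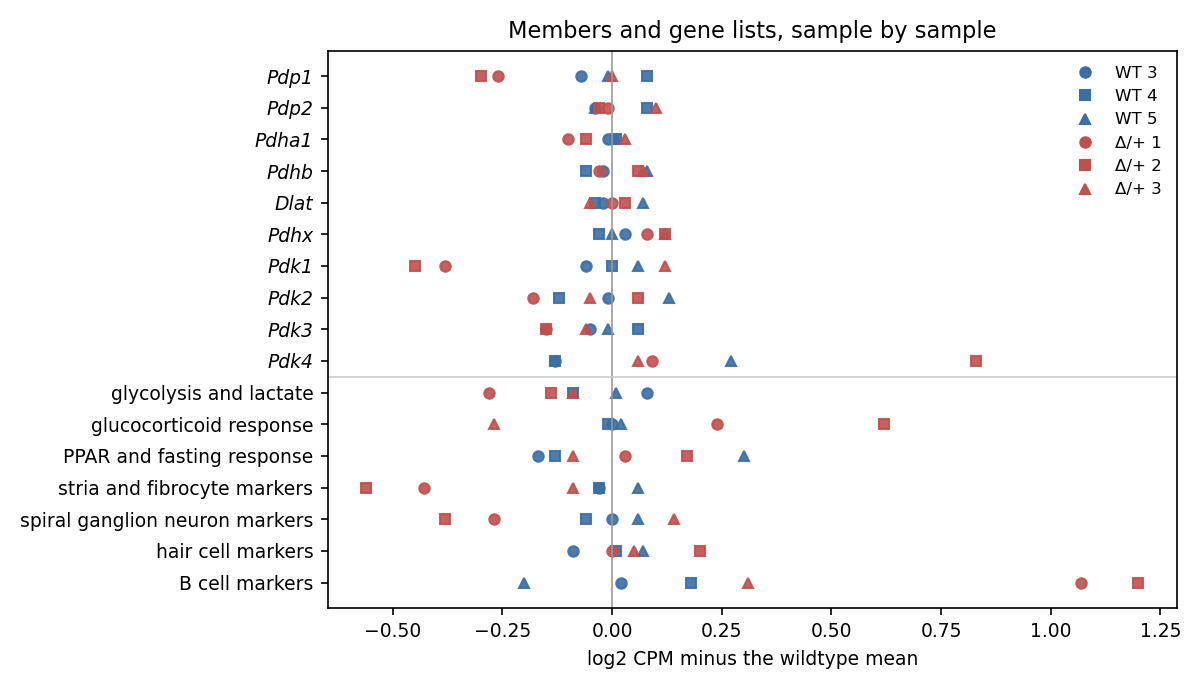
log2 CPM of each member, and mean log2 CPM of lists of related genes and cell type markers, as the difference of each sample from the wildtype mean. Pou4f3(Δ/+) replicates 1 and 2 lie low for Pdk1 (-0.38 and -0.45), Pdp1 (-0.26 and -0.30) and the stria markers (-0.43 and -0.56) and high for the B cell markers (1.07 and 1.20), and Pou4f3(Δ/+) replicate 3 lies near wildtype in most rows.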

How the data were processed

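Bulk RNA-seq libraries came from cochleae, with 3 wildtype and 3 Pou4f3(Δ/+) samples, by poly(A) selection or rRNA removal. The authors deposited expected counts (estimated counts, not normalized) and FPKM values per transcript, the latter scaled to transcript length and library size. The submitters' processing notes name DESeq2 and the build mm8, while the listed lengths equal genomic spans of GENCODE M21 (GRCm38) for 97.2% of the transcripts found there, which was used for coordinates and sequences. The aligner and counting program are not given in the sources used here.

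Counts were summed per gene symbol, rounded, filtered with filterByExpr (minimum count 10, minimum total 15), TMM normalized and tested over all 6 samples with edgeR 4.0.16 in R 4.3.3 (quasi-likelihood test, Benjamini-Hochberg over all features), and transcript usage with diffSpliceDGE. Intervals are 1.96 standard errors on either side. Log2 CPM used a prior count of 2. Alternatives were DESeq2 1.42.0, its size factors, no filter, limma 3.58.1 on log2(FPKM + 0.5) or + 0.1, and samples left out. Scripts were tested on simulated data. Depth was 14295069 to 17696784 counts per sample, and limits from counts cover counting error only. Ratios between genes and single transcript shares were given without a test; an exact permutation of 3 against 3 cannot go below p = 0.1.

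The members and gene lists were chosen with earlier results of these data known. Named are all members, all Pdp1 transcripts, other member transcripts with at least 5% of the gene's FPKM in either group or an unadjusted p under 0.05, listed genes with an unadjusted p under 0.05 (given by value or as counts), Dld, Pdpr and Pou4f3. The coding start of 1 Pdp1 transcript is not reported here.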

Additional observations from a re-analysis of the deposited data

How the results depend on the processing

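No member other than Pdp1, which was not tested, was called in any of the 12 alternatives. The counts over all features moved: DESeq2 called 64 genes and 130 transcripts, no filter 9 genes and 1 transcript, and leaving out 1 sample in turn 0 to 193 genes (193 without Pou4f3(Δ/+) replicate 3, 3 without wildtype replicate 4) and 0 to 3 transcripts (3 without wildtype replicate 3). Genes with changed usage were 80 to 115 with 1 sample left out against 50 with all. Small fold changes turned sign: over the left-out samples Pdp2 ran from -0.012 to 0.069, Dlat from -0.028 to 0.026 and Pdk2 from -0.12 to 0.01; limma on FPKM gave Pdhx -0.036 and, with the smaller pseudocount, -0.037; and Pou4f3(Δ/+) replicate 3 alone gave Pdha1 0.034 and Pdk1 0.125. The cause was not tested, other than that fewer samples were fitted. By expected counts the share of ENSMUST00000108302 was 6.51% in wildtype and 0.00344% in Pou4f3(Δ/+), and the kinase to phosphatase ratio was 3.24 and 3.34. No paired analysis was possible because the groups share fewer than 2 replicate numbers. Depth limits the low transcripts: ENSMUST00000108302 rests on at most 46.9 counts in a sample.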

Other observations

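Among lists not yet described, the 5 erythroid markers had a median log2 fold change of 0.37, which was 0.014 for Pou4f3(Δ/+) replicate 3 alone against wildtype. Their mean log2 CPM was 9.37 to 9.67 in wildtype and 10.12, 10.04 and 9.63 in Pou4f3(Δ/+), high in the samples that stood apart. None passed the adjusted test, and 2 had an unadjusted p under 0.05. Hbb-bt, a beta globin, had 951, 929 and 817 FPKM in wildtype and 1315, 1322 and 1088 in Pou4f3(Δ/+) (log2 fold change 0.47, edgeR adjusted p = 0.643), and Slc4a1, the red cell anion exchanger, had 225, 227 and 162 against 317, 246 and 230 (log2 fold change 0.37). Globin genes share near-identical copies, so their counts are uncertain. Of the 7 neutrophil markers, 1 had an unadjusted p under 0.05, Mpo (log2 fold change -0.40), and of the 6 bone markers 1 did, Phex (log2 fold change -0.22). Of the 9 hypoxia response genes, read beside Pdk1, 1 did: Egln1, an oxygen-sensing prolyl hydroxylase, had 15.3, 15.7 and 15.1 FPKM in wildtype and 17.2, 16.9 and 18.4 in Pou4f3(Δ/+) (log2 fold change 0.18, edgeR adjusted p = 0.643). The median log2 fold change of that list was -0.11. Over all genes, 4.14% had an unadjusted p under 0.05 with lower and 3.5% with higher values in Pou4f3(Δ/+).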
